A study of Homo sapiens with 6 samples.

Results

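The NF-kB transcription factors, their feedback inhibitors and the cytokines, chemokines and other genes they control were followed in ES-2, a cell line derived from a human ovarian carcinoma. The list holds 33 genes, and a gene entered by its symbol through the probe sets whose platform annotation names that gene alone. A gene's values are those of its brightest probe set over the 6 arrays. Probe sets of the _x_at type, which may cross-hybridise, stood in only for genes without another. This gave 31 members of the 18118 genes measured in the same way, while CSF2 and SOD2 were not analysed here. Total RNA from 3 samples labelled CADM1-overexpression ES-2 cells and 3 labelled ES-2 cells, which the series calls mock controls, all taken in logarithmic growth, was hybridised to 6 Affymetrix PrimeView arrays, 1 per sample. CADM1 encodes an immunoglobulin-type adhesion protein, and the stated question was which upstream pathways go with its tumour suppressor role. The labels give no vector, promoter, clone, dose or time for the overexpression, and nothing says that samples were cultured separately. The p-values therefore measure only how these arrays spread, which may be technical.

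NF-kB is a family of dimeric transcription factors that are held in the cytoplasm by inhibitors of the I-kappa-B type. Ligands such as TNF and interleukin-1 engage receptors whose adaptors activate the IKK kinase complex, the inhibitor is degraded, and the freed dimer enters the nucleus and binds kappaB sites in promoters. Its targets include its own inhibitors, which end the response, and chemokines that recruit neutrophils, T cells and monocytes. Ovarian cancer cells are known to secrete several of these factors, CXCL8 and IL6 among them.

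The promoters of the ELR chemokines, which carry a glutamate-leucine-arginine motif and attract neutrophils, show how a kappaB site is shared within the list. The stretches printed lie at bases -110 to -51 from the start site listed by RefSeq (GRCh38.p14), on the gene's own strand, with matches to the decameric kappaB consensus or to the shorter form GGANTTTCC in capitals. Where capitals run over more letters than the motif, matches on both strands overlap.
CXCL1 chr4:73869283-73869342 (plus strand): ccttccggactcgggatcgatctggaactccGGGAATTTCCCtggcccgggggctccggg
CXCL3 chr4:74038740-74038799 (minus strand): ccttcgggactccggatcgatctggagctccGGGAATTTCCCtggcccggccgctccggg
CXCL2 chr4:74099246-74099305 (minus strand): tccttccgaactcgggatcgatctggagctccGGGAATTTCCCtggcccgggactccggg
CXCL6 chr4:73836568-73836627 (plus strand): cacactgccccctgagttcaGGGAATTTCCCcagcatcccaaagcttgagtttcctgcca
CXCL5 chr4:73998728-73998787 (minus strand): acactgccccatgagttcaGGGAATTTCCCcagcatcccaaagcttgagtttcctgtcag
CXCL8 chr4:73740459-73740518 (plus strand): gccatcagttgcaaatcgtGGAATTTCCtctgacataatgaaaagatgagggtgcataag
CXCL1, CXCL2, CXCL3, CXCL5 and CXCL6 held the same decamer, GGGAATTTCC, beginning at bases -79, -78, -79, -91 and -90 in that order. CXCL8 held only the shorter form, GGAATTTCC, beginning at base -91. Without gaps, the printed CXCL1 and CXCL3 stretches were identical at 55 of 60 aligned bases and those of CXCL5 and CXCL6 at 57 of 59, whereas CXCL1 and CXCL8 matched at 21 of 47. CXCL1 and CXCL5 matched at 21 of 57, at an offset that does not line up their shared decamer. Each pair was compared at the offset with the most identical bases, so aligned lengths differ. Only promoter stretches were compared. The ELR chemokine genes form a multigene family, and whether their probe sets share signal was not tested.

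The feedback inhibitors NFKBIA and TNFAIP3 and the cytokine IL6 are printed because they are textbook NF-kB targets. Bases -110 to -51 are shown for NFKBIA and IL6, and -100 to -41 for TNFAIP3, which held 2 decamers on the opposite strand.
NFKBIA chr14:35404800-35404859 (minus strand): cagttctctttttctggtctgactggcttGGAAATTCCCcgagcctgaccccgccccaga
TNFAIP3 chr6:137867159-137867218 (plus strand): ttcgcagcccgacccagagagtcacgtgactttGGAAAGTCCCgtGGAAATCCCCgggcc
IL6 chr7:22727090-22727149 (plus strand): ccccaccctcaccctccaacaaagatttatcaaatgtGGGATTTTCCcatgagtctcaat
IL1A and TNFAIP2 are printed, from -110 to -1, because they were the members that passed the test described further on.
IL1A chr2:112784494-112784603 (minus strand): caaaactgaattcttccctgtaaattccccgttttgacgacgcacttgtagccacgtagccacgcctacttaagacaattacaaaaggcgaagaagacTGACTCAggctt
TNFAIP2 chr14:103123351-103123460 (plus strand): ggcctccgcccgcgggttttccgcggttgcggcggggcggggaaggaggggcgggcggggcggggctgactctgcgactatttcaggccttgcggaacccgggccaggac
Neither held a match to either kappaB form in its window, which says only that those letters are not in these bases. The capitals in IL1A mark TGACTCA, a match to the AP-1 motif TGANTCA, beginning at base -12 from the more upstream of 2 listed starts.

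The table lists promoter windows, from 250 bases before to 50 after a start, for 26 of the 33 members. The windows of CCL2, CCL5, CSF1, CSF3, IL18, LIF and RELB were not analysed here. The decameric consensus, searched on both strands, was found in 15 of the 26 members (57.7%) and in 7.09% of all 27305 genes in the table. The form GGANTTTCC, which overlaps the decamer at most sites, was found in 16 members (61.5%) and in 2.01% of all genes. The AP-1 motif was found in 4 members, IL1A, CXCL8, CXCL11 and IL11 (15.4%), and in 9.37% of all genes. By promoter rather than by gene, the shares over all 35116 windows were 5.91%, 1.64% and 7.71%. The list was drawn up from known NF-kB genes, so these shares describe that choice.

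**Figure D1:**
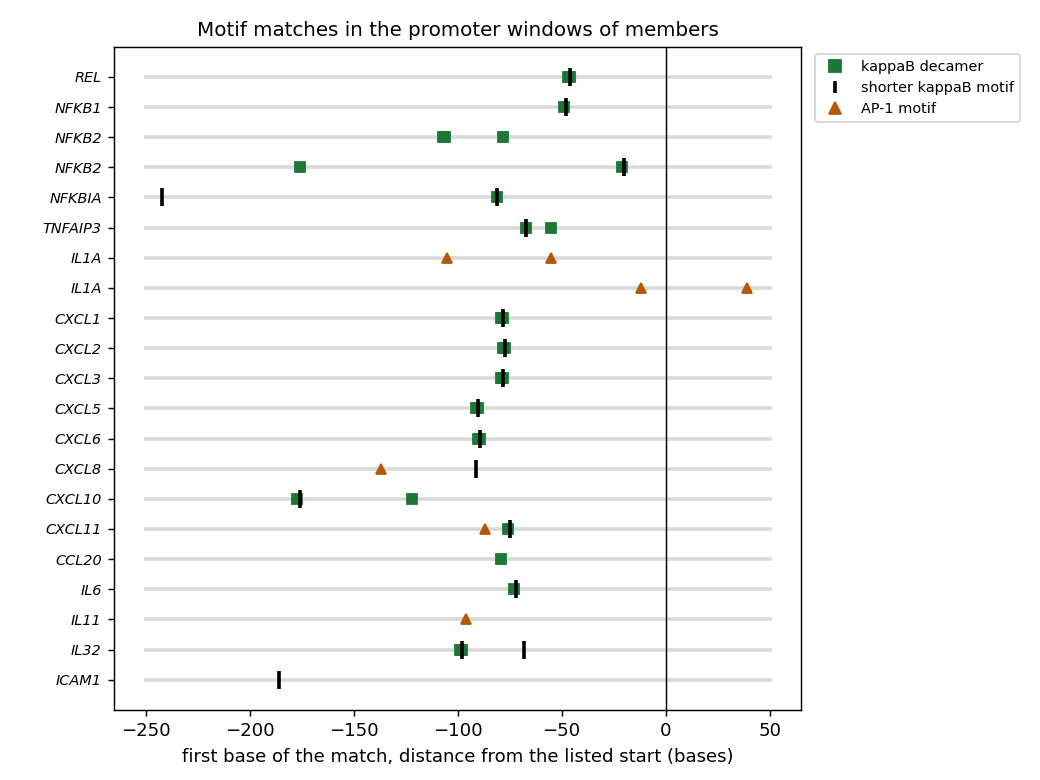
Positions of motif matches in the promoter windows of members, in bases from the listed start; each grey line is 1 listed start with a match, green squares mark the kappaB decamer, black ticks the shorter kappaB form and brown triangles the AP-1 motif. CXCL1, CXCL2 and CXCL3 hold the decamer at base -78 or -79, and IL1A and IL11 hold matches to the AP-1 motif alone.

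CADM1 itself was checked first. Its brightest probe set read 8.14, 8.10 and 8.18 on the log2 scale in the arrays labelled overexpression and 10.24, 10.29 and 10.23 in the arrays labelled control. The log2 fold change of that probe set was -2.12 ± 0.0306 (SE), opposite to the labels (limma, adjusted p = 5.42e-15). None of its 5 dimmer probe sets was called, and their signs were mixed. The second brightest ran with the labels, at 7.72, 7.61 and 7.58 in the arrays labelled overexpression against 7.49, 7.44 and 7.46, without overlap, for 0.17 (limma, adjusted p = 0.0962 across probe sets). The other 4 gave 0.04, 0.04, -0.01 and -0.06, and which of the probe sets read the introduced CADM1 is not known here. Source names of 2 overexpression arrays read CADM2 and CADM3 against titles and genotypes that read CADM1, so groups are named here by their titles and every direction is that of the labels. Array medians ran from 6.18 to 6.20 over all probe sets.

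Among the 31 members, IL1A rose and TNFAIP2 fell in the arrays labelled overexpression, and the other 29 were not called. A call means an adjusted p under 0.05 from limma, with Benjamini-Hochberg correction across the 18118 genes. The 2 calls are 6.45% of the members, beside 2.16% of all genes. One member of 31 was called higher, where the share over all genes was 0.96%, and 1 lower, where it was 1.2%. The median log2 fold change of the members was 0.03 and that of all genes 0.01, with 19 members above 0 and 12 below. At an unadjusted p under 0.05 there were 6 members (19.4%) and 13.9% of all genes. The groups did not overlap in 4 members, IL1A, CXCL1, CXCL6 and TNFAIP2 (12.9%), beside 18.3% of all genes. The 95% confidence intervals of the 29 members without a call lay between -0.38 and 0.35. In bulk RNA, fewer expressing cells and less RNA per cell cannot be told apart.

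**Figure D2:**
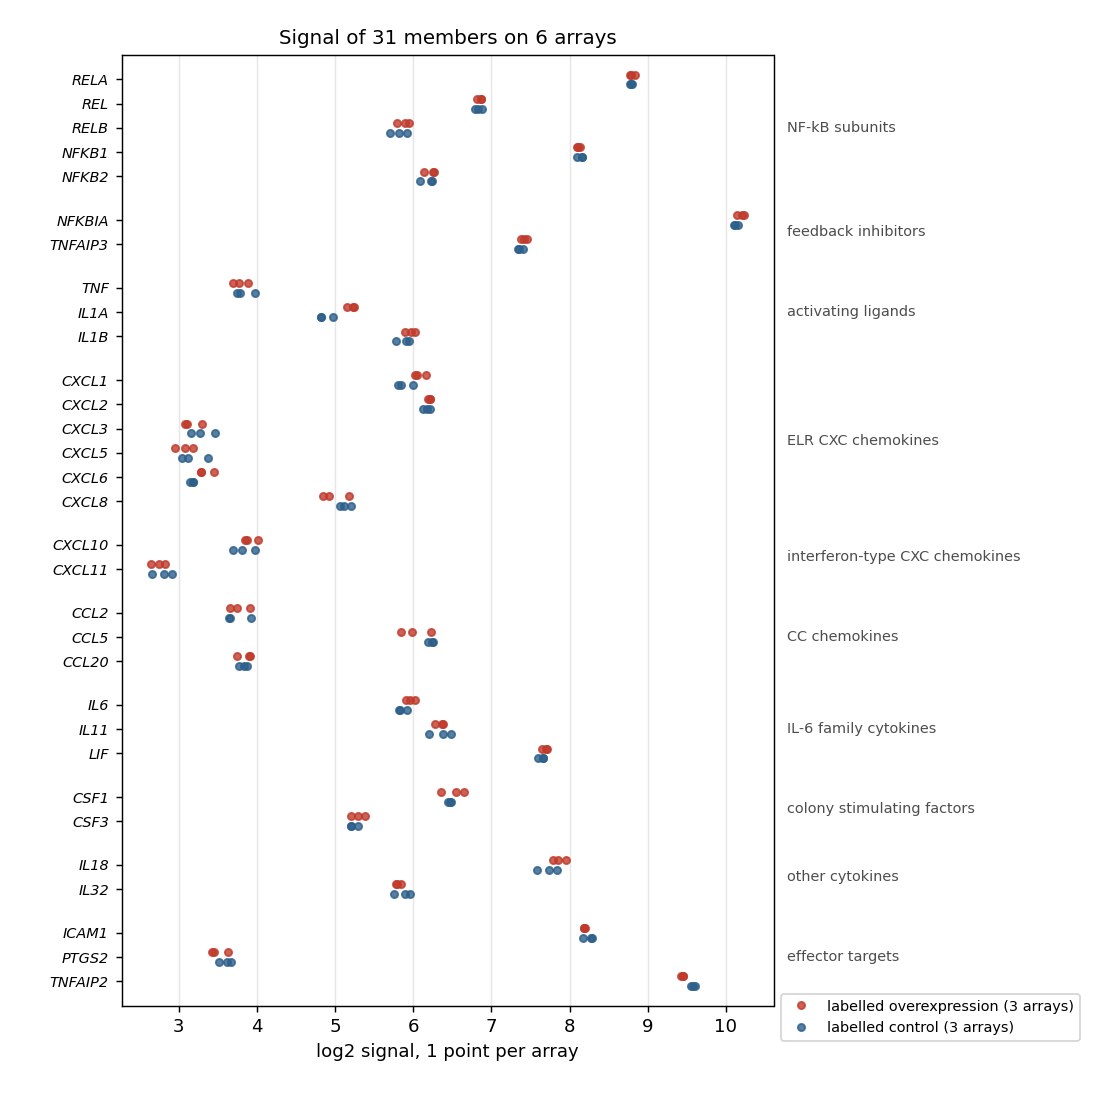
Log2 signal of the 31 members, 1 point per array, red for the 3 arrays labelled overexpression and blue for the 3 labelled control, ordered by role. Red and blue points separate for IL1A, CXCL1, CXCL6 and TNFAIP2, and for most members they lie over each other; levels of different genes come from different probe sets and are not comparable.

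The 5 subunits of NF-kB were not called, and with the probe sets used for the genes none had an unadjusted p under 0.05 (limma). RELA, the main activating subunit, read 8.79, 8.84 and 8.77 in the arrays labelled overexpression and 8.78, 8.79 and 8.80 in the arrays labelled control, a log2 fold change of 0.01 with a 95% interval of -0.06 to 0.08. Its 2 dimmer probe sets gave -0.13 and -0.10, both without overlap of the groups. Their unadjusted p-values were 0.00310 and 0.0400, and neither was called (limma, adjusted p = 0.108 and 0.354 across probe sets), so the sign for RELA depends on the probe set. REL, the lymphoid-type subunit, gave 0.02, and RELB, which pairs with the product of NFKB2 in the non-canonical pathway, gave 0.07 with an interval of -0.10 to 0.23. NFKB1, the precursor of p50, gave -0.03, and NFKB2, the precursor of p52, gave 0.03. With the probe sets used for the genes, subunit differences ran from -0.03 to 0.07 and the groups overlapped in each, unlike in the 2 dimmer RELA probe sets.

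The feedback inhibitors, both direct NF-kB targets, had log2 fold changes above 0 and were not called. NFKBIA, which encodes I-kappa-B-alpha, read 10.20, 10.14 and 10.23 against 10.12, 10.16 and 10.11. Only the second overexpression array lay within the range of the controls, and the log2 fold change was 0.06 ± 0.0276 (SE) (limma, adjusted p = 0.380). Its other 2 probe sets, of the _x_at type, were also above 0, at 0.04 each. TNFAIP3, the ubiquitin-editing enzyme A20, gave 0.05, and its other probe set 0.10.

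Of the 3 activating ligands, IL1A rose. IL1A encodes interleukin-1 alpha, a cytokine that is active as its precursor and can act as an alarm signal when cells are damaged. Its signal was 5.25, 5.23 and 5.16 in the arrays labelled overexpression and 4.82, 4.97 and 4.82 in the arrays labelled control. Every overexpression array lay above every control array. The log2 fold change was 0.34 ± 0.0789 (SE), a 1.27-fold difference in signal with an interval of 0.17 to 0.51 (limma, adjusted p = 0.0382). By size it ranked 38 of 18118 genes but by p 319, and a single probe set read it. IL1B, the gene of interleukin-1 beta, a separate cytokine made as an inactive precursor, read 5.89, 5.97 and 6.02 against 5.95, 5.78 and 5.91. Its log2 fold change was 0.08 with an interval of -0.07 to 0.23. TNF gave -0.05 at means of 3.79 and 3.84, below the 25th percentile of gene means, 4.52. The IL1A call was lost with quantile normalization (log2 fold change 0.31, adjusted p = 0.0573), without a variance trend (0.124) and with the replicate number as a block (0.0647), and it was also lost without overexpression array 1 (0.165), 2 (0.127) or 3 (0.0539) or control array 1 (0.134) or 3 (0.107). IL1A stayed above 0 in every setting in which it was tested, from 0.23 to 0.39.

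**Figure D3:**
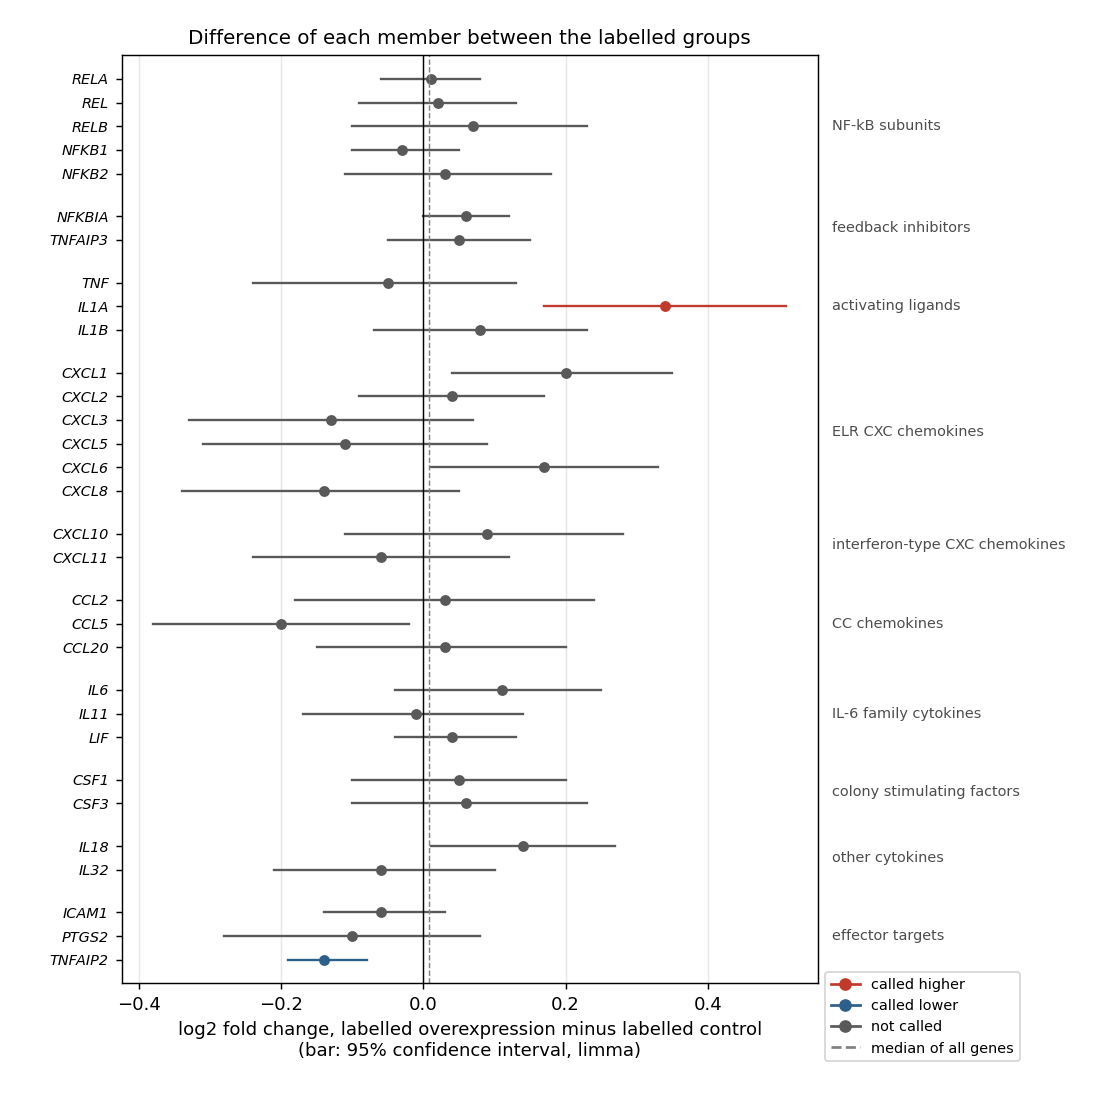
Log2 fold change of each member, labelled overexpression minus labelled control, with its 95% confidence interval from limma; the dashed line is the median of all genes and 0 the solid line. IL1A (0.34) and TNFAIP2 (-0.14) are coloured as called, and the other 29 are grey.

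The 6 ELR chemokines, which signal through CXCR2 and, for CXCL6 and CXCL8, also CXCR1, were not called, and their log2 fold changes divided evenly in sign. CXCL1 read 6.17, 6.05 and 6.03 against 6.00, 5.85 and 5.81, without overlap. Its log2 fold change was 0.20 ± 0.0732 (SE) (limma, adjusted p = 0.219). CXCL6 read 3.45, 3.29 and 3.29 against 3.19, 3.18 and 3.15, also without overlap, for 0.17 ± 0.0762 (SE) (limma, adjusted p = 0.338). CXCL6 lay below the 25th percentile of gene means, and its difference was 0.063 with an offset of 16 added to the linear signal and 0.075 with the mean of its probe sets. Its dimmer probe set gave -0.02, so the difference was not shared by the probe sets, whereas the other CXCL1 probe set gave 0.08. CXCL2 gave 0.04, with readings of 6.21, 6.21 and 6.19 against 6.21, 6.18 and 6.12. CXCL8, interleukin-8, read 4.85, 4.93 and 5.18 against 5.07, 5.12 and 5.20, and its log2 fold change was -0.14 with an interval of -0.34 to 0.05. Here the third overexpression array lay among the controls and the other 2 below them, and the difference was -0.24 without the third and -0.075 without the first. The other 2 CXCL8 probe sets gave -0.06 and 0.00, and the mean of all 3 was -0.066. CXCL3 gave -0.13 and CXCL5 -0.11, both also below the 25th percentile of gene means, and all probe sets of each gene had the same sign. CXCL1 and CXCL6 were the members of this group with an unadjusted p under 0.05, 2 of 6 (limma), beside 13.9% of all genes. The same 2 were without overlap, beside 18.3% of all genes.

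CXCL10 and CXCL11, ligands of CXCR3 on T cells that interferon also induces, gave 0.09 and -0.06 and were not called. CXCL10 read 3.88, 4.01 and 3.85 against 3.70, 3.98 and 3.81. Both were below the 25th percentile of gene means, as were CCL2 and CCL20. Among the CC chemokines, CCL2, which attracts monocytes, and CCL20, the CCR6 ligand, each gave 0.03. CCL5, a T cell chemokine that interferon and NF-kB both induce, read 6.23, 5.85 and 5.99 against 6.25, 6.24 and 6.19. The first overexpression array lay among the controls and the other 2 below them, and the log2 fold change was -0.20 ± 0.0840 (SE) (limma, adjusted p = 0.283). The other 2 CCL5 probe sets were also below 0, at -0.22 and -0.06. When single arrays were left out, CCL5 ran from -0.30 without overexpression array 1 (limma, adjusted p = 0.109) to -0.12 without overexpression array 2 (adjusted p = 0.647), and it was never called.

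IL6, IL11 and LIF signal through the shared receptor subunit gp130, and none was called. IL6 read 6.02, 5.91 and 5.96 against 5.83, 5.92 and 5.82, for a log2 fold change of 0.11 with an interval of -0.04 to 0.25. Its other probe set gave -0.12, so the mean of both was near 0. IL11 gave -0.01 against 0.07 and 0.08 from its other probe sets, and LIF gave 0.04 against 0.00 and -0.09. Of the colony stimulating factors, CSF1, the macrophage growth factor, gave 0.05, and CSF3, the granulocyte factor, gave 0.06. CSF1 spread more in the arrays labelled overexpression, at 6.65, 6.55 and 6.36, than in the arrays labelled control, at 6.48, 6.45 and 6.47. IL18, an inflammasome-processed cytokine of the interleukin-1 family, read 7.85, 7.96 and 7.79 against 7.74, 7.59 and 7.84. Its log2 fold change was 0.14 ± 0.0602 (SE) from a single probe set of the _x_at type (limma, adjusted p = 0.298). IL32 gave -0.06, but its 3 other probe sets gave 0.02, 0.06 and 0.07.

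Of the 3 effector targets, TNFAIP2 fell, and ICAM1 and PTGS2 were not called. TNFAIP2, a TNF-induced gene linked to membrane protrusions, read 9.45, 9.42 and 9.45 in the arrays labelled overexpression and 9.56, 9.58 and 9.60 in the arrays labelled control. All 3 overexpression arrays lay below all 3 controls, and the SDs within the groups were 0.017 and 0.024. The log2 fold change was -0.14 ± 0.0264 (SE), a signal 1.10-fold higher in the controls (limma, adjusted p = 0.0150). It ranked 171 by p but 1949 by size, so the call rested on a small SE, which is set in part by the variance trend over all genes. Of its 5 probe sets 4 were below 0, and the second brightest, at -0.25, also passed (limma, adjusted p = 0.00264 across probe sets). ICAM1, the adhesion molecule bound by leukocyte integrins, read 8.18, 8.19 and 8.20 against 8.29, 8.28 and 8.17, for -0.06, with its other 2 probe sets at -0.08 and -0.11. PTGS2, cyclooxygenase-2, gave -0.10 at means of 3.50 and 3.60, and its other probe sets gave 0.01 and 0.06.

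The TNFAIP2 call was lost without a variance trend (adjusted p = 0.244), with the replicate number as a block (0.0638) and without overexpression array 1 (0.0720) or 2 (0.0668) or control array 1 (0.0502), 2 (0.0553) or 3 (0.0522). TNFAIP2 stayed below 0 in all 17 alternatives, from -0.15 to -0.12.

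Across the 69 probe sets that name a member, 3 were called, 1 of IL1A and 2 of TNFAIP2, beside 1.5% of all 44988 probe sets naming 1 gene (limma, adjusted over those probe sets). Of the 21 members with several probe sets, 10 had 1 sign throughout and 11 had mixed signs. In RELA, IL11, LIF, IL32 and PTGS2, each with 3 or more, the probe set used was the only one with its sign. The agreement was complete for NFKBIA, CXCL5, CXCL11, CCL5, CSF3 and ICAM1, with 3 probe sets each.

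**Figure D4:**
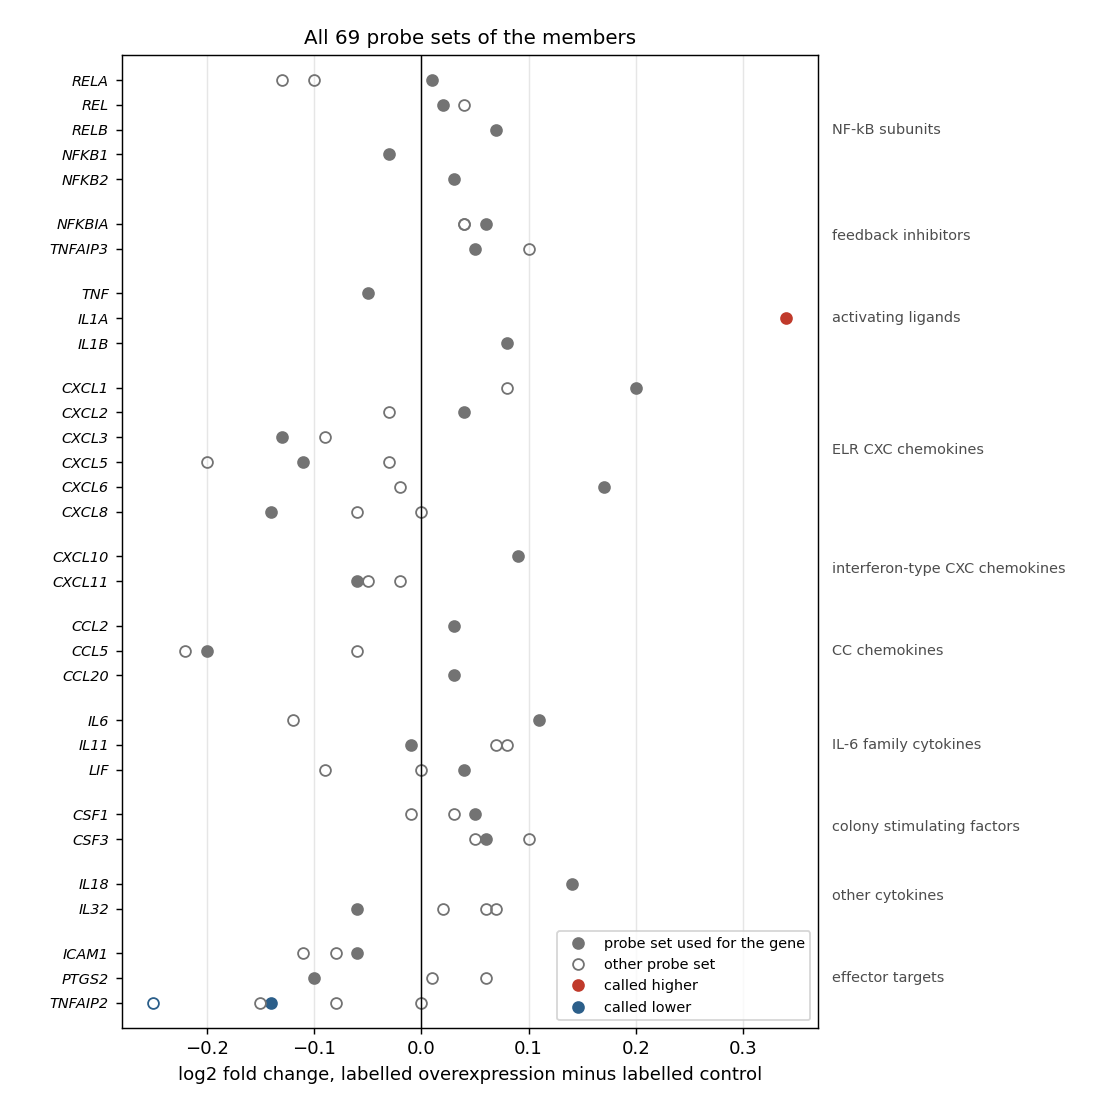
Log2 fold change of all 69 probe sets of the members, labelled overexpression minus labelled control; filled circles are the probe sets used for the genes, open circles the others, and colour marks those called. TNFAIP2 has 2 called probe sets, at -0.14 and -0.25, and IL1A a single one at 0.34.

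Set beside the promoters printed above, none of the 17 measured members with either kappaB form in its window was called (limma), and 2 of them, CXCL1 and CXCL6, had an unadjusted p under 0.05. Their log2 fold changes ran from -0.14 for CXCL8 to 0.20 for CXCL1, with a median of 0.03. The 7 measured members with a window and no match were IL1A, TNFAIP2, IL1B, TNF, RELA, PTGS2 and IL11, of which IL1A and TNFAIP2 were called. Over all genes 2.16% were called and 13.9% had an unadjusted p under 0.05, so among 17 genes no call is near that background, and the difference between the members with and without a match was not tested. The 5 ELR chemokines that share the decamer GGGAATTTCC gave 0.20, 0.17, 0.04, -0.11 and -0.13.

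The lists of other pathway genes, drawn up by role with earlier results of these data known, held 114 measured genes, of which MAP3K14 rose and 6 fell, beside the 2.16% called over all genes, with a median log2 fold change of 0.00. Upstream of NF-kB, 0 of 23 receptors and adaptors were called (limma), and 1 had an unadjusted p under 0.05, the lymphotoxin receptor gene LTBR at -0.08. The adaptor gene TRADD gave 0.08. Among 11 genes of the IKK complex and upstream kinases, MAP3K14 rose. It encodes NIK, the kinase that starts the non-canonical pathway leading to RELB and the NFKB2 product. Its signal was 7.89, 7.86 and 7.98 in the arrays labelled overexpression and 7.76, 7.72 and 7.70 in the arrays labelled control, all 3 above all 3. The log2 fold change was 0.18 ± 0.0424 (SE) (limma, adjusted p = 0.0382), and its other probe set gave 0.07. That call was lost with the mean of both probe sets (adjusted p = 0.168), with the replicate block (0.0913), without a variance trend (0.237) and without overexpression array 1 (0.135), 2 (0.0538) or 3 (0.0973) or control array 1 (0.0879), 2 (0.121) or 3 (0.101). IKBKB, a catalytic subunit of IKK, gave 0.08 and was not called, and 7 of its 11 probe sets had that sign.

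None of 16 other inhibitors of NF-kB or of cytokines was called, and none had an unadjusted p under 0.05 (limma), with the RNase gene ZC3H12A at -0.08 and NFKBID at 0.12. Of 31 other NF-kB targets 3 fell and none rose, with a median of -0.02. Over all genes 1.2% were called lower and 0.96% higher. CFB, complement factor B, read 8.14, 8.14 and 8.03 against 8.28, 8.33 and 8.36, and it fell by 0.22 (limma, adjusted p = 0.0111). IER3, an immediate early gene, read 9.76, 9.77 and 9.85 against 9.94, 9.95 and 9.97, and it fell by 0.16 (limma, adjusted p = 0.00866). C3, the central complement component, fell by 0.15, at 9.67, 9.60 and 9.70 against 9.82, 9.83 and 9.77. In each of these 3 genes every overexpression array lay below every control. The groups did not overlap, in either direction, in 8 of the 31 targets, beside 18.3% of all genes. The brightest 3 of 4 CFB probe sets were below 0, and the mean of its probe sets gave -0.11 without a call (adjusted p = 0.131). Without a variance trend IER3 (adjusted p = 0.244), CFB (0.206) and C3 (0.270) were not called. IER3 was also lost without overexpression array 1 (0.0746), and C3 with the replicate block (0.0648) and without overexpression array 1 (0.0865) or 2 (0.0811) or control array 1 (0.101) or 2 (0.0839).

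Of 22 receptors of the member ligands, PTGER4, which binds the prostaglandin made through PTGS2, fell by 0.14 (limma, adjusted p = 0.0445). Its signal was 8.29, 8.31 and 8.34 against 8.46, 8.45 and 8.44, and its other probe set gave -0.23. In the fit across probe sets neither PTGER4 probe set was called (limma, adjusted p = 0.0566 and 0.123). The PTGER4 call was lost with quantile normalization (adjusted p = 0.0536), the replicate block (0.130), no variance trend (0.234) and without overexpression array 1 (0.200) or 2 (0.128) or control array 1 (0.160), 2 (0.134) or 3 (0.0795). Of 11 genes of the AP-1, C/EBP and STAT3 factors that act beside NF-kB at many cytokine promoters, FOS fell by 0.16 and CEBPB by 0.12 (limma, adjusted p = 0.0226 and 0.0169). The 1 call among 22 receptors and the 2 among these 11 genes stand beside 1.2% of all genes called lower. FOS read 8.72, 8.69 and 8.78 against 8.89, 8.92 and 8.86, and all 4 of its probe sets were below 0. CEBPB read 10.10, 10.11 and 10.10 against 10.25, 10.22 and 10.20. Neither was called without a trend (FOS 0.248, CEBPB 0.270), with the block (0.0773 and 0.0736), without overexpression array 1 (0.125 and 0.0990) or 2 (0.0986 and 0.0501) or without control array 1 (0.0979 and 0.113) or 2 (0.103 and 0.0586), and the mean of the FOS probe sets gave -0.077 without a call (0.236).

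**Figure D5:**
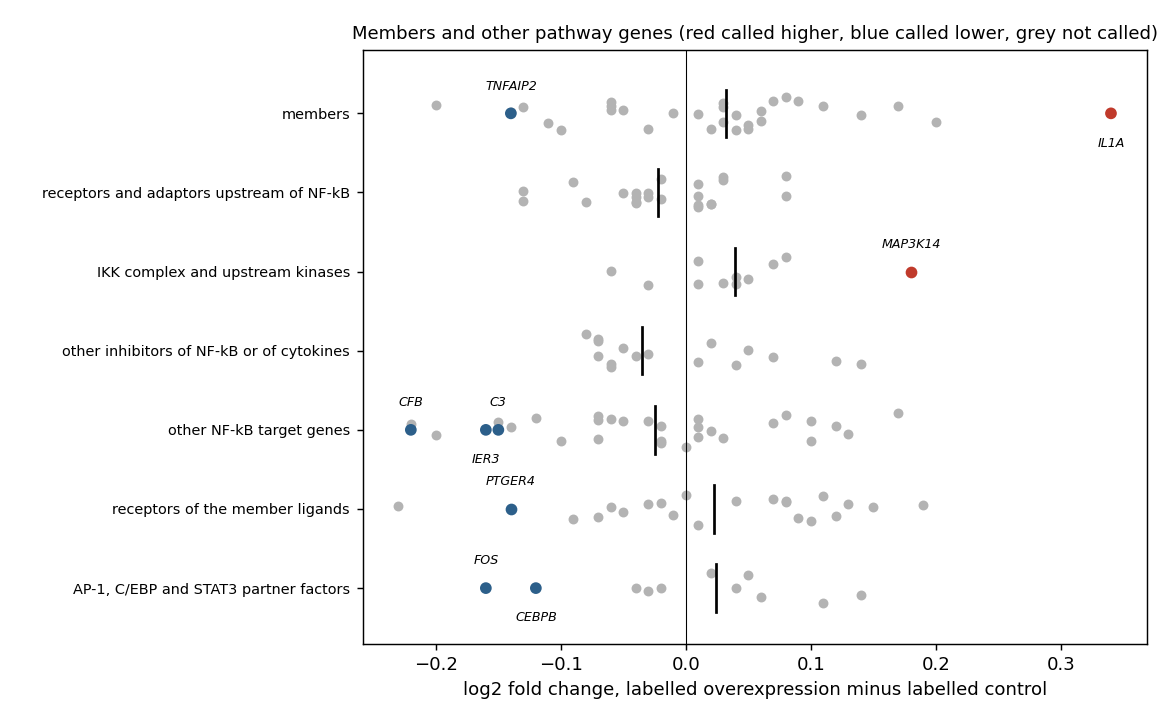
Log2 fold change of the 31 members and of 114 other pathway genes in 6 lists, labelled overexpression minus labelled control; each point is a gene, the black bar is the list's median, and named red or blue points were called higher or lower. IL1A (0.34) and MAP3K14 (0.18) are the called genes above 0.

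Markers of other cell types that could supply these cytokines were measured beside them. None of 11 blood cell markers was called or had an unadjusted p under 0.05 (limma), and the mean log2 level of that list was 4.40 to 4.43 in the arrays labelled overexpression and 4.37 to 4.46 in the arrays labelled control. PTPRC, the pan-leukocyte marker, had means of 3.03 and 2.90. Gene means in that list ran from 2.60 to 7.45, and CD68, at 7.42 and 7.48, and TYROBP, at 6.82 and 6.74, were the brightest. Of 7 fibroblast markers none was called or had an unadjusted p under 0.05, with list means of 4.47 to 4.50 and 4.38 to 4.47. Of 6 endothelial markers CDH5, a junction cadherin, fell by 0.27 (limma, adjusted p = 0.0474). Its other probe set gave -0.16, with overlap of the groups. In the fit across probe sets neither was called (limma, adjusted p = 0.0538 and 0.385). KDR, a VEGF receptor, gave 0.26 and was not called (limma, adjusted p = 0.229). Of the 6, 4 were above 0, the list median was 0.05 and the list means were 4.90 to 5.01 and 4.91 to 4.98. The part of these markers in any result was not tested. The epithelial keratins KRT7, KRT8 and KRT18 had means of 12.47, 12.95 and 13.23 in the arrays labelled overexpression and 12.53, 13.00 and 13.30 in the arrays labelled control. Their differences of -0.06, -0.04 and -0.07 and those of the junction genes CDH1, at 0.18, and CLDN4, at 0.14, were all without overlap and without a call. These are 5 of 9 epithelial markers, and over all genes 18.3% were without overlap. EPCAM, at 2.90 and 3.01, and the ovarian lineage factor genes PAX8, at 4.74 and 4.57, and WT1, at 4.25 and 4.23, were near or below the 25th percentile of gene means. So was EMX2, at 4.09 and 4.10. The other ovarian carcinoma markers were brighter, with FOLR1 at 10.83 and 10.91 and MSLN at 10.07 and 9.96. NAPSA had means of 6.91 and 6.84, SOX17 of 6.48 and 6.48 and MUC16 of 5.46 and 5.47. None of 9 epithelial and 8 ovarian carcinoma markers was called, while 5 and 2 of them had an unadjusted p under 0.05 (limma), beside 13.9% of all genes.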

How the data were processed

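Expression was measured on 6 one-colour arrays, 3 per labelled group, as 1 table of 49395 probe sets. The deposited values, taken as log2, came from MAS5 per the submitters' processing notes (version not given). The log2 scale was inferred here, and the low end looks unlike MAS5, so the summary method, the scaling and the meaning of low values stay unsettled. Precision is limited by the number of arrays.

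Probe sets naming 1 gene (44988) were named from the platform annotation, with symbols updated by gene number (44961 matched RefSeq, GRCh38.p14). Nothing was filtered or renormalised: of 31 members, 22 lay at or above the 25th percentile of gene means and 9 at or above the median. The group comparison used limma 3.58.1 under R 4.3.3 (lmFit, eBayes with trend, group alone), two-sided, and the code was tested on simulated data. Promoters come from RefSeq. The planned comparison of chemokine protein sequences was not run. Figures used matplotlib 3.10.9.

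Members, pathway lists and tests were chosen with earlier results of these data known. All members were named, and in each pathway list up to 4 called genes of lowest p, or, in lists with none, the 2 of lowest p; IKBKB was named after its values were seen. Alternatives were quantile normalization, median centring, an offset of 16, 2 filters on dim genes, 2 other probe set rules, no trend, robust eBayes, array weights, a replicate block and leaving out each array.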

Additional observations from a re-analysis of the deposited data

How the results depend on the processing

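Over the 17 alternatives none of the 29 members without a call became called in the 463 values obtained, since members below a filter on dim genes have no value there. Of the 29, 18 kept 1 sign in all values obtained, and the median log2 fold change of the members stayed between 0.014 and 0.042. CADM1 stayed called throughout and gave -0.32 with the mean of its probe sets. The number of members called was 1 with quantile normalization, 1 after removing genes below the median level, where IL1A was not tested, 0 without a variance trend, 0 with the replicate block, and 0 to 1 when an array was left out. Over all genes the count of 392 became 11 without a variance trend, 172 with the replicate block and 116 to 379 when an array was left out, and the 7 called pathway genes became 0, 2 and 1 to 6 in the same order. Fewer arrays enter the fits that leave one out, and the cause of the other losses was not tested.

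The deviations of same-numbered arrays from their group means correlated at 0.129, -0.0709 and -0.0726, and those of differently numbered arrays at -0.124 to 0.177. With 3 arrays per group these values cannot decide whether the replicate numbers pair the arrays. With the replicate block IL1A had an adjusted p of 0.0647 and TNFAIP2 of 0.0638.

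Signs of members near 0 turned under some settings, none of them called. With the mean of all probe sets RELA gave -0.072, IL6 -0.0039, IL11 0.043, LIF -0.015 and IL32 0.022, and with quantile normalization CCL20 gave -0.0081. When arrays were left out RELA ran from -0.0076 to 0.024, NFKB2 from -0.016 to 0.071, TNF from -0.10 to 0.016, CXCL11 from -0.13 to 0.0049, CCL2 from -0.036 to 0.13, CCL20 from -0.0033 to 0.08, IL11 from -0.091 to 0.049 and CSF1 from -0.013 to 0.13.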
